A study of Mus musculus with 2 samples.

Results

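Histone-modifying enzymes and chromatin remodellers set how tightly DNA is packed and which genes a cell can read. Demethylases and methyltransferases remove or add methyl groups on histones, deacetylases remove acetyl groups, and remodellers of the SWI/SNF type use ATP to move nucleosomes. In muscle stem cells, PAX7, the paired box and homeodomain factor that marks this cell type, is known to work through such proteins, since it can bring a histone methyltransferase complex with WDR5 and ASH2L to its target genes after CARM1 has methylated it. The genes described here are the protein-coding genes of GRCm38 with symbols of the Kdm, Kmt, Setd, Hdac, Arid, Smarc and Tet families, and the Polycomb genes Eed, Ezh1, Ezh2 and Suz12. By this rule there were 75 chromatin genes among 21887 protein-coding genes, and their peaks made up 29 of the 2977 peaks of the study.

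The study used chromatin immunoprecipitation with sequencing (ChIP-seq) in muscle stem cells that had been sorted by flow cytometry from untreated C57BL/6 mice with a knock-in of yellow fluorescent protein at Pax7 (Pax7-YFP KI), so both libraries carried the same allele. The 1 ChIP library was made with an antibody against GFP (10622111 tags after filtering) and the 1 control library from input DNA (20429667 tags). No value had a replicate, the q-values are the authors' comparison of this ChIP library with this input, and whether animals were pooled, their age, and cells without the tagged allele were not part of the data used here. The authors' values were used for each peak, which are the pileup (the number of ChIP fragments that cover the summit), the enrichment over the local input background and the q-value. Intervals printed after a fold are exact 95% Poisson intervals from the pileup, computed for an unchanged background. A gene was counted as carrying a peak when a summit lay inside its span, or when its end was the nearest protein-coding gene end within 50 kb of the summit. A peak marks DNA recovered with the antibody and says nothing about how much of the gene's RNA the cells held. By that count, 7 of 12 muscle stem cell marker genes carried a peak (58.3%, Wilson 95% interval 32.0 to 80.7%), against 9.58% of all protein-coding genes. Pax7 was among them with a highest fold of 14.7, and the highest fold of that list was 19.2 at Ncam1. Peaks were also at 4 of 8 endothelial (50.0%, 21.5 to 78.5%), 1 of 8 fibro-adipogenic (12.5%, 2.24 to 47.1%) and 0 of 8 leukocyte marker genes (up to 32.4%). The intervals of the muscle stem cell and endothelial genes overlapped.

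Peaks were found at 19 of the 75 chromatin genes (25.3%, Wilson 95% interval 16.9 to 36.2%), against 2097 of all 21887 protein-coding genes, the chromatin genes included (9.58%, 9.20 to 9.98%). The genes with a peak were Kdm1a, Kdm3a, Kdm5a, Kdm5b and Kdm7a among the demethylases, Kmt2a and Setd3 among the methyltransferases, Eed and Ezh1 in the Polycomb group, and Hdac4, Hdac5 and Hdac10 among the deacetylases. Among the remodeller subunits they were Arid1a, Arid1b, Smarca2, Smarcd2 and Smarce1, and the remaining ones were Arid5b and Tet2. The strongest peaks, at Hdac5 and Arid1b, were each close to 15-fold. The other 27 peaks had folds under 10. These counts describe 1 peak list and carry no test. When the weaker part of the list by −log10 q was left out (peaks under its median), 7 of the 75 chromatin genes (9.33%) and 5.20% of all genes had a peak. The ratio of these shares was 1.79, against 2.64 with the whole list, and no interval was computed for them.

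**Figure D1:**
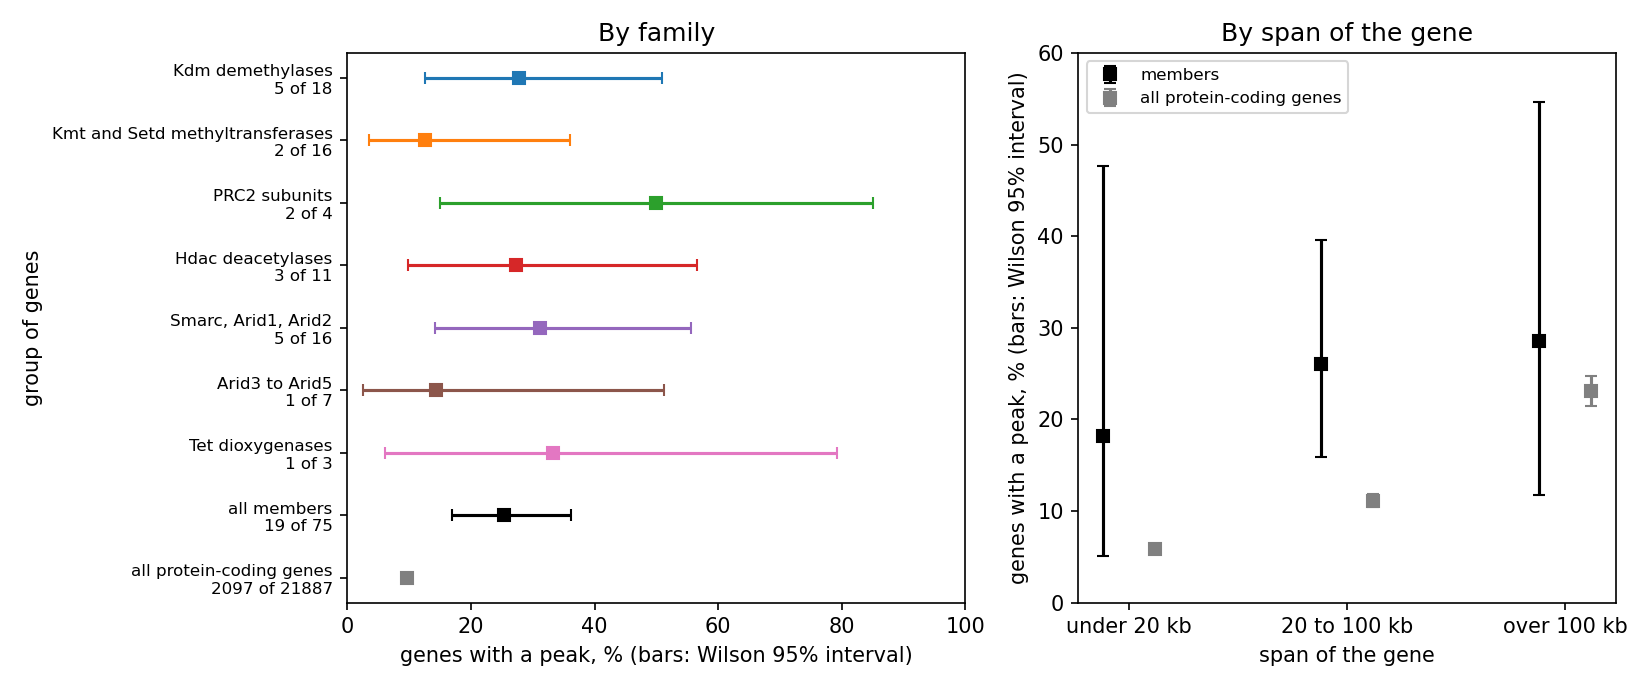
Share of genes with a peak in percent, with Wilson 95% intervals as bars. The left panel shows the 7 families, all 75 chromatin genes (25.3%) and all protein-coding genes (9.58%), and the right panel shows chromatin genes (black) beside all protein-coding genes (grey) in 3 classes of gene span. The black points lie above the grey ones in each class, and the wide bars come from the small number of chromatin genes.

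Long genes can hold more summits, and many chromatin genes are long, so the shares were also set side by side by gene span. Among genes under 20 kb, 2 of 11 chromatin genes carried a peak (18.2%, 5.14 to 47.7%), against 5.84% of all protein-coding genes of that size. Among genes of 20 to 100 kb it was 13 of 50 (26.0%, 15.9 to 39.6%), against 11.1% of all genes. Among genes over 100 kb it was 4 of 14 (28.6%, 11.7 to 54.6%), against 23.1% of all genes. The interval of the chromatin genes lay above the share of all genes in the middle class and contained it in the other classes. A part of gene span in the pooled difference was not tested.

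In fold enrichment, the median and quartiles of the peaks at chromatin genes were below those of the whole list, and no test was run. Their median fold was 7.03 (quartiles 6.07 and 7.35), against 7.35 (6.27 and 8.82) for all 2977 peaks. Folds of 10 or more were reached by 2 of 29 peaks (6.90%), against 430 of all peaks (14.4%). The pileup at chromatin genes ran from 9 to 29 fragments with a median of 13, against a median of 15 over all peaks. A typical peak here therefore rested on 13 ChIP fragments. The local background ran from 0.977 to 1.56 fragments. The value of 0.977 is the floor of the whole list, and 14 of the 29 peaks (48.3%) stood at it, against 44.1% of all peaks. Folds at those peaks are relative to this floor and not to input fragments counted at the site. None of the 29 peaks had the high input background seen at some other peaks of the list, where it reached 179 fragments.

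**Figure D2:**
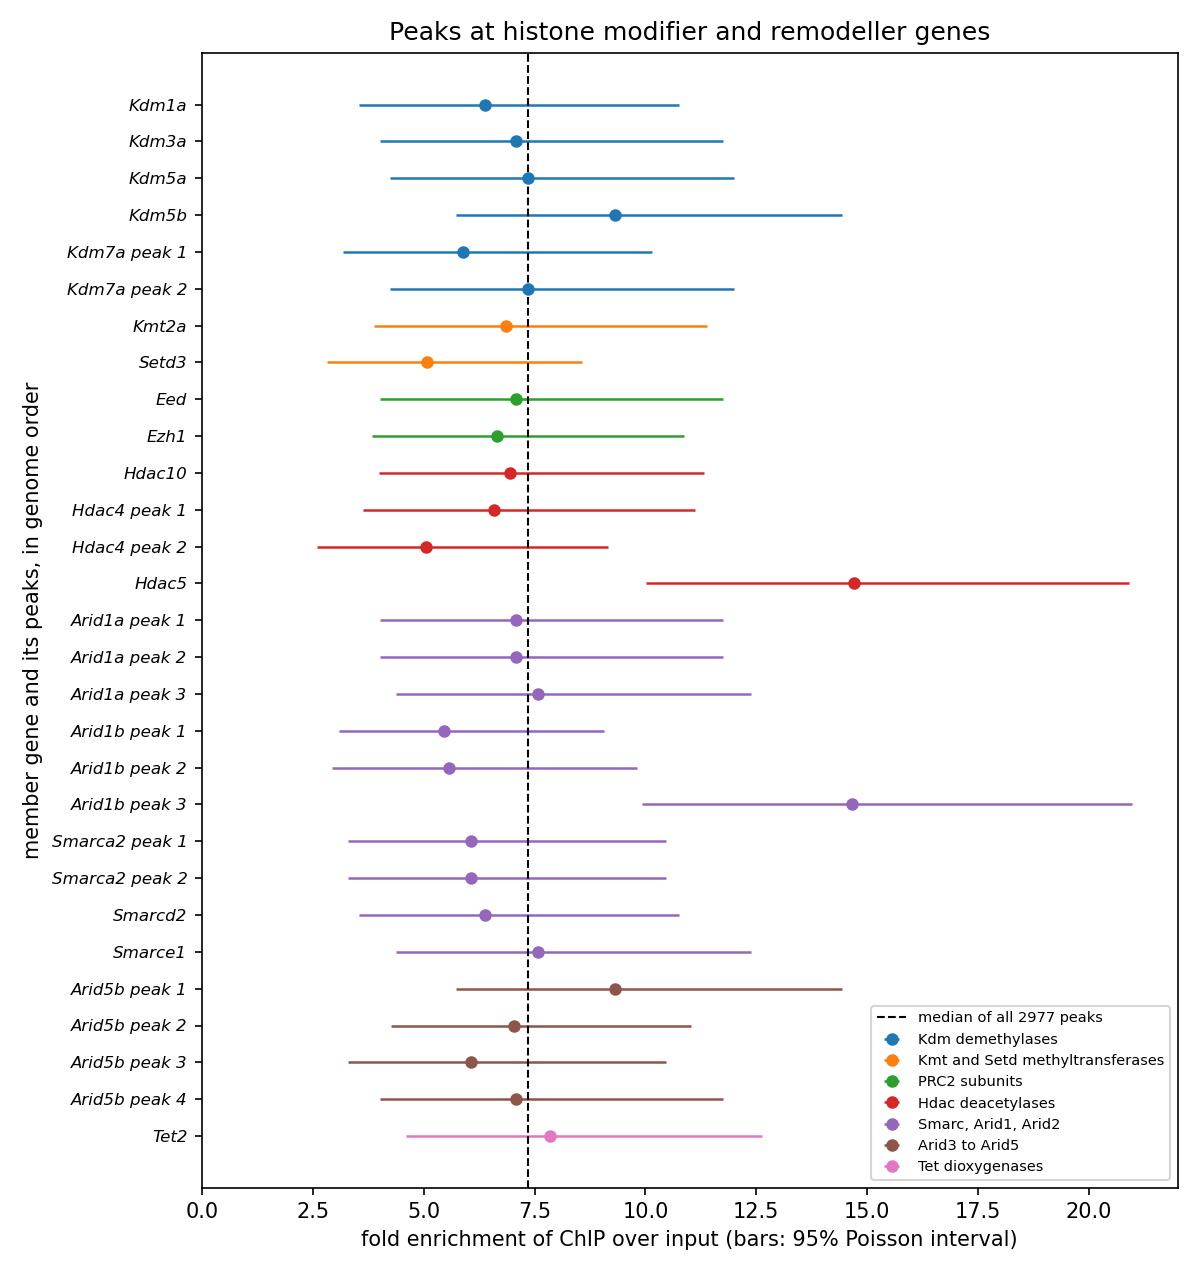
Fold enrichment of ChIP over input at each of the 29 peaks of chromatin genes, with the exact 95% Poisson interval as bars and colours by family. The dashed line is the median of all 2977 peaks (7.35). Hdac5 and the most distal Arid1b peak stand near 15-fold, with intervals that begin at or above 9.92, and the other intervals overlap one another. The intervals of Hdac5 and the distal Arid1b peak also overlap most of the others. The exceptions are Setd3, the upstream Hdac4 peak and the weaker Arid1b peaks.

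Many of the peaks lay at the start of a gene. Of the 29 peaks, 14 (48.3%, 31.4 to 65.6%) had their summit within 1000 bp of a protein-coding gene end, against 867 of 2520 assigned peaks of all genes (34.4%, 32.6 to 36.3%). These 14 peaks belonged to 13 chromatin genes (17.3% of 75, 10.4 to 27.4%), against 4.10% of all genes with a peak within 1000 bp of their own end. A further 6 chromatin genes (8.0%, 3.72 to 16.4%) had peaks only beyond 1000 bp, against 5.48% of all genes. Strand was known from the RefSeq promoter table for 11 of the 14 peaks. In 11 of 11 the end was the outermost start of the gene and not its 3′ end. Over all protein-coding genes the same held for 738 of 763 such pairs of a peak and a gene (96.7%, 95.2 to 97.8%), so this side is the usual one in the list.

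**Figure D3:**
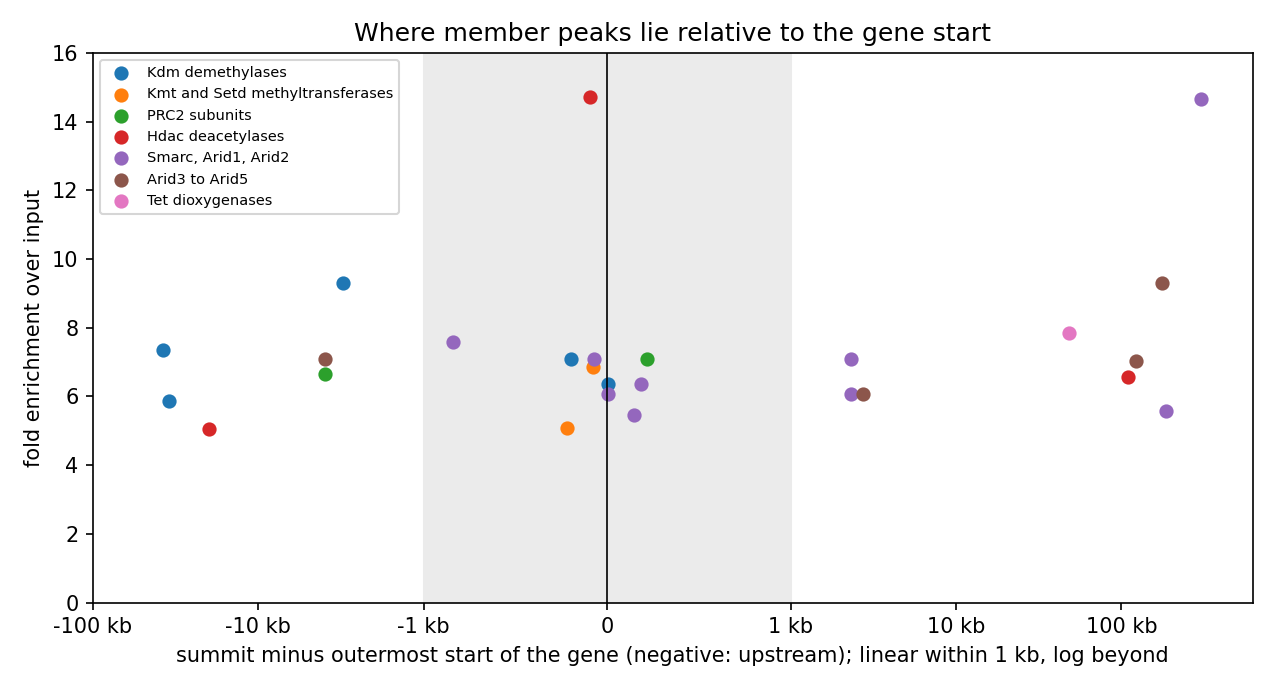
Fold enrichment of the 26 peaks of chromatin genes with a known strand against the distance of the summit from the outermost annotated start (negative is upstream; the axis is linear within 1 kb, shaded, and logarithmic beyond). The start-proximal peaks lie between 5.08- and 14.7-fold, and the Arid1b peak at 14.7-fold lies 301 kb into the gene.

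The summit fell inside an annotated promoter window of its own gene, 250 bp before to 50 bp after a listed start, at Hdac5, Arid1a, Kmt2a, Kdm1a and Smarca2. The sequences below cover the summit and a part of each of these peaks, and not the whole peak. They come from RefSeq (GRCm38.p6), read 5′ to 3′ on the strand of the gene from the upstream edge of the window to 20 bases inside the outermost start, and the 11 bases in capitals are centred on the summit.
Hdac5, chr11:102230153-102230422, minus strand: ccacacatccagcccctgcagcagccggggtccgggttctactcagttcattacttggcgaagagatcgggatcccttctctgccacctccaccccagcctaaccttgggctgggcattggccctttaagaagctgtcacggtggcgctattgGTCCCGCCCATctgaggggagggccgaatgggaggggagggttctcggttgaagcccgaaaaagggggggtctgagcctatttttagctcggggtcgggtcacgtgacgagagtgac
Arid1a, chr4:133756750-133757019, minus strand: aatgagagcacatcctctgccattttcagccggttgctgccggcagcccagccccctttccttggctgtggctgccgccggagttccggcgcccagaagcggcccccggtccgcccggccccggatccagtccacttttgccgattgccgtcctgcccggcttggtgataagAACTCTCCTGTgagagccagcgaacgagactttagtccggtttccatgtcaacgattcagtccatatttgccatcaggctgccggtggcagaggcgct
Kmt2a, chr9:44881333-44881539, minus strand: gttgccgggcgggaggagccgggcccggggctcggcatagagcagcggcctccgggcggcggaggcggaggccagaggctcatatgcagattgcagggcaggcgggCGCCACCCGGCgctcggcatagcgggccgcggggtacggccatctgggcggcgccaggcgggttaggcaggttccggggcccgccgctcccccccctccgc
Kdm1a, chr4:136602768-136602973, minus strand: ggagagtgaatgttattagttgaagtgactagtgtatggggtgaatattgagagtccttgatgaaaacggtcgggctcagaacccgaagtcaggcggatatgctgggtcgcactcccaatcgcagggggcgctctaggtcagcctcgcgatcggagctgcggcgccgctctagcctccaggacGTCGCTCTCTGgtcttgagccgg
Smarca2, chr19:26604910-26605092, plus strand: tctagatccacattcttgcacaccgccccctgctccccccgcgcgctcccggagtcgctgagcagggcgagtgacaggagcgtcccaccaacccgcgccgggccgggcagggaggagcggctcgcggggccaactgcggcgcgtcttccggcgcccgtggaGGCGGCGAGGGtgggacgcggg
The Kmt2a stretch was 78.3% G and C with 26 CpG dinucleotides in 207 bases, the Smarca2 stretch 75.4% with 25 in 183 bases, and the Kdm1a stretch 57.8% with 16 in 206 bases. In the whole windows the ratio of observed to expected CpG ran from 0.660 at Hdac5 to 1.08 at Kdm1a, against a median of 0.849 in 570 windows of protein-coding genes with a summit and 0.567 in all 21263 windows. Windows of chromatin genes were rich in CpG with or without a peak. Their median ratio was 0.880 for genes with a peak and 0.818 for genes without.

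Letters of the kind PAX7 is known to bind were looked for on both strands of these windows. For the homeodomain, TAAT followed by ATTA after 2 bases, the same after 3 bases, and TAATTA were each in 0 of the 5 windows, against 0.315%, 0.362% and 4.53% of all 21263 windows. For the paired domain, GTCACGC was in 0 of the 5 windows, against 2.66% of all windows and 15.4% of the 570 windows with a summit. CGTCAC, which shares letters with GTCACGC, was in 1 of the 5, against 11.3% of all windows and 25.3% of those with a summit. It was read at Hdac5 on the other strand, at bases 257 to 262 of the stretch above, 98 bases from the summit. These are matches of letters in short windows, which do not cover the whole of the Hdac5 and Kmt2a peaks. The DNA under the distal peaks, and at the summits of the other start-proximal peaks, was not read here.

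Class IIa deacetylases, which bind MEF2 factors and hold back muscle genes, included the strongest peak at any chromatin gene. Hdac5 had a pileup of 29 ChIP fragments against a local background of 1.04, a fold of 14.7 (10.01 to 20.9) and a q-value of 1.69e-27, in 345 bp at chromosome 11, 102230139 to 102230483. The summit lay 92 bp upstream of the start, and the peak ranked 45 by fold among all 2977. Hdac4, its close relative, had weaker peaks, one 109 kb inside the gene at chromosome 1, 92086241 to 92086456, with 12 fragments and 6.58-fold (3.64 to 11.1, q-value 5.18e-07), and one 19.8 kb upstream with 9 fragments and 5.06-fold (2.59 to 9.15), the lowest fold of the 29. The interval of Hdac5 did not overlap that of the upstream Hdac4 peak, but it overlapped that of the stronger Hdac4 peak inside the gene. Hdac10, which encodes a deacetylase of polyamines, had a peak of 14 fragments and 6.94-fold (4.0 to 11.3, q-value 3.51e-08) at chromosome 15, 89128492 to 89128698, 75 bp inside an end of the gene and also inside the noncoding gene Gm46530. In all, 3 of 11 deacetylase genes had a peak (27.3%, 9.75 to 56.6%), against 9.58% of all genes, just under the lower end of that interval. No peak was assigned to Hdac7 and Hdac9, the other class IIa genes, whose nearest summits were 186 and 349 kb away, nor to Hdac1, Hdac2, Hdac3, Hdac6, Hdac8 and Hdac11. A summit of 6.86-fold lay only 107 bp outside Hdac3, but an end of Rell2 was nearer at 68 bp.

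The Smarc, Arid1 and Arid2 genes, which encode SWI/SNF subunits and other remodellers such as the ISWI ATPases of Smarca1 and Smarca5, held 10 peaks at 5 of 16 genes (31.2%, 14.2 to 55.6%), against 9.58% of all genes. Arid1a and Arid1b encode alternative DNA-binding subunits of the canonical complex, and both carried several peaks. The 3 Arid1a peaks lay between 2.33 kb inside and 842 bp upstream of its start on chromosome 4, at 133754351 to 133754527, 133756747 to 133756941 and 133757466 to 133757754. Their folds were 7.08 (4.01 to 11.8), 7.08 and 7.59 (4.38 to 12.4), with 13, 13 and 14 fragments, and the strongest had a q-value of 3.96e-09. Whether they are separate binding events was not tested. Arid1b, a gene of 353 kb on chromosome 17, had a peak of 5.47-fold (3.09 to 9.08) 148 bp inside its start and a peak of 5.56-fold (2.93 to 9.81) 186 kb into the gene. Its remaining peak, at 5295508 to 5295864, had 28 fragments against a background of 0.977, the floor of the list. That peak had a fold of 14.7 (9.92 to 21.0) and a q-value of 8.16e-27, and ranked 48 in the list. The interval of this distal peak did not overlap those of the other Arid1b peaks.

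The ATPase gene Smarca2, which encodes BRM, had peaks of 11 fragments and 6.07-fold (3.28 to 10.5, q-value 5.25e-06) each, at its start inside the noncoding gene Gm52395 (chromosome 19, 26604967 to 26605138) and 2.31 kb further in (26607310 to 26607481). Smarca4, which encodes the alternative ATPase BRG1, had no peak, and its nearest summit was 106 kb away. Smarcd2, an accessory subunit gene, reached 6.37-fold (3.53 to 10.8, q-value 9.39e-07) with 12 fragments at chromosome 11, 106272677 to 106272972. An end of Tcam1 lay 207 bp from that summit and the end of Smarcd2 185 bp, and which of these genes the peak belongs to cannot be told apart. Smarce1, which encodes another common subunit, reached 7.59-fold (4.38 to 12.4, q-value 3.96e-09) with 14 fragments at chromosome 11, 99230537 to 99230801, 332 bp inside an end of the gene. Arid2, Smarca1, Smarca5, Smarcad1, Smarcal1, Smarcb1, Smarcc1, Smarcc2, Smarcd1 and Smarcd3 had no assigned peak. A summit 3.46 kb from Smarcc2 was nearer to Myl6b, at 108 bp, and a summit 11.6 kb from Smarcd1 was nearer to Cox14, at 41 bp.

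**Figure D4:**
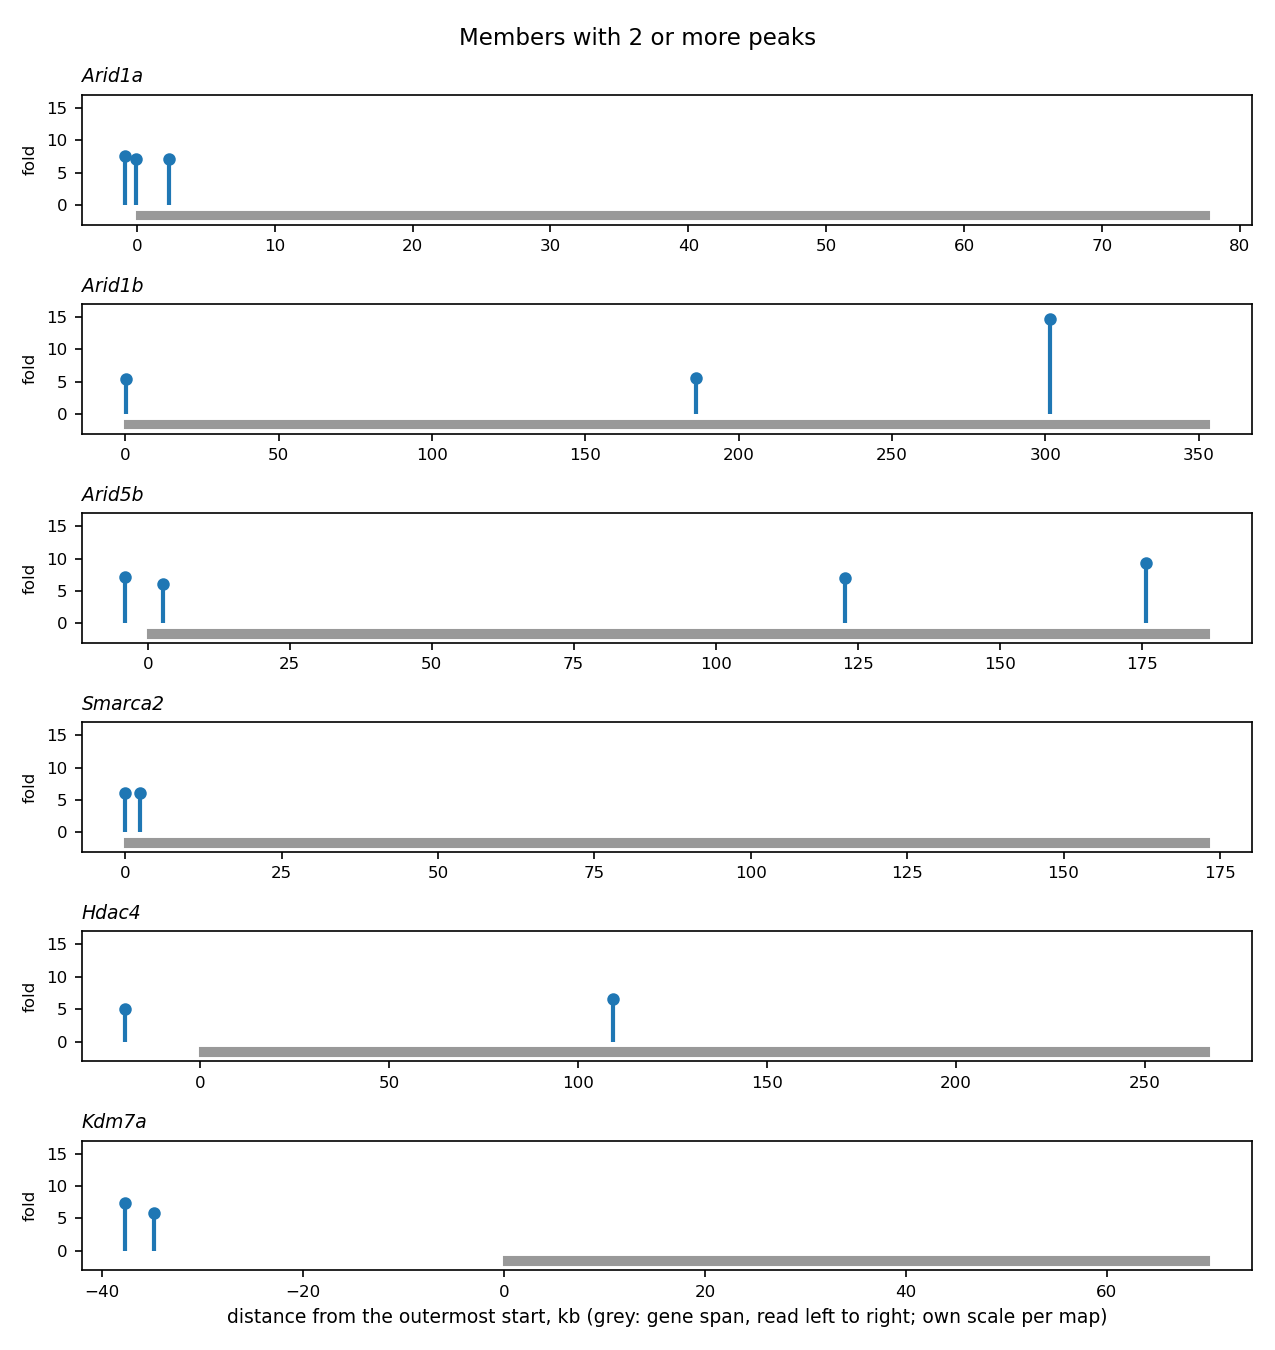
Peaks of the 6 chromatin genes with 2 or more, as fold enrichment against distance in kb from the outermost start of the gene (grey bar is the gene span; each map has its own scale). The Arid1a and Smarca2 peaks crowd at the start, the strongest Arid1b and Arid5b peaks lie far inside, and the Kdm7a peaks lie upstream.

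Arid5b, which encodes an ARID protein that works with the demethylase PHF2, had 4 peaks, the most of any chromatin gene. The other 6 genes of the Arid3 to Arid5 group had none (1 of 7 with a peak, 14.3%, 2.57 to 51.3%, against 9.58% of all genes). The strongest Arid5b peak, 9.31-fold (5.72 to 14.4, q-value 2.83e-13) with 18 fragments at chromosome 10, 68103539 to 68103754, lay 176 kb into the gene and 11.1 kb from its 3′ end. A broader peak of 702 bp with 17 fragments and 7.03-fold (4.26 to 11.02) lay 122.8 kb into the gene at 68156384 to 68157085, also inside the noncoding gene Gm51770. The others stood on either side of the start, 2.74 kb inside with 6.07-fold and 3.97 kb upstream with 7.08-fold. In all, 6 of the 19 chromatin genes with a peak had 2 or more (31.6%), against 372 of 2097 of all genes with a peak (17.7%). Gene span was not matched in this comparison, and no interval was computed for it.

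Of 18 demethylase genes, 5 had a peak (27.8%, 12.5 to 50.9%), against 9.58% of all genes. KDM5 enzymes take methyl groups off a histone mark of active promoters, and both autosomal genes of this group carried peaks. Kdm5b had 18 fragments against 1.04 and 9.31-fold (5.72 to 14.4, q-value 2.83e-13) at chromosome 1, 134557002 to 134557220, where the summit lay 3.07 kb upstream of the start and inside Mgat4e. Kdm5a had 14 fragments and 7.35-fold (4.24 to 12.01, q-value 8.29e-09) at chromosome 6, 120363685 to 120364046, 342 bp outside the gene and inside the neighbouring Ccdc77, whose own end was 612 bp away. Kdm3a, which encodes a demethylase of a repressive mark, had 13 fragments and 7.08-fold (4.01 to 11.8, q-value 4.69e-08) at chromosome 6, 71633026 to 71633352, 198 bp upstream of its outermost start. Kdm1a, which encodes LSD1, had 12 fragments and 6.37-fold (3.53 to 10.8, q-value 9.39e-07) at chromosome 4, 136602687 to 136602858, 2 bp inside its outermost start. Kdm7a had no peak near its start but 2 peaks upstream, at 34.9 kb with 5.88-fold (3.18 to 10.1) and at 37.7 kb with 14 fragments and 7.35-fold (4.24 to 12.01, q-value 8.29e-09), chromosome 6, 39244344 to 39244645, both inside the noncoding gene Gm38794. The intervals of all 6 demethylase peaks overlapped. Kdm1b, Kdm2a, Kdm2b, Kdm3b, Kdm4a, Kdm4b, Kdm4c, Kdm4d, Kdm5c, Kdm5d, Kdm6a, Kdm6b and Kdm8 had none.

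Methyltransferase genes carried peaks in 2 of 16 cases (12.5%, 3.50 to 36.0%), against 9.58% of all genes, a share inside the interval of the family. Kmt2a, which encodes the trithorax-type enzyme MLL, had 13 fragments and 6.86-fold (3.88 to 11.4, q-value 9.14e-08) in 450 bp at chromosome 9, 44881381 to 44881830, with the summit 76 bp upstream of the outermost start and inside the noncoding gene Gm39326. Setd3, which encodes an actin histidine methyltransferase, had 12 fragments against 1.56 and 5.08-fold (2.81 to 8.58, q-value 6.17e-05) at chromosome 12, 108179400 to 108179733. That summit lay 219 bp from the end of Setd3 and 256 bp from an end of Ccnk, and inside the span of Ccnk. The relatives Kmt2b, Kmt2c, Kmt2d and Kmt2e, and Kmt5a, Kmt5b, Kmt5c, Setd1a, Setd1b, Setd2, Setd4, Setd5, Setd6 and Setd7 had no assigned peak.

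In the Polycomb repressive complex that methylates histones, Eed and Ezh1 had a peak and Ezh2 and Suz12 had none (2 of 4 genes, Wilson 95% interval 15.004 to 85.0%, against 9.58% of all genes). Eed, the subunit that reads the mark, had 13 fragments and 7.08-fold (4.01 to 11.8, q-value 4.69e-08) at chromosome 7, 89980622 to 89980805, 214 bp inside its start. Ezh1, the catalytic subunit known for its role in non-dividing cells, had 14 fragments against 1.25 and 6.66-fold (3.84 to 10.9) at chromosome 11, 101230301 to 101230473, 3.95 kb upstream of its start. The nearest summit to Ezh2, the catalytic subunit known from dividing cells, was 186 kb away, and that to Suz12 275 kb away.

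Of 3 TET genes, 1 had a peak under the rule (33.3%, 6.15 to 79.2%), against 9.58% of all genes. This was Tet2, which encodes an enzyme that oxidises methylated cytosine. It had 15 fragments and 7.84-fold (4.61 to 12.6, q-value 6.96e-10) at chromosome 3, 133497021 to 133497257, 48.0 kb into the gene. A summit 12.9 kb from Tet3 had a fold of 11.6, but an end of Bola3 was 324 bp from it, and the nearest summit to Tet1 was 317 kb away.

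The sex chromosomes held 6 chromatin genes, and none had a peak. On X these were Hdac6, Hdac8, Kdm5c, Kdm6a and Smarca1, 0 of 5 (Wilson 95% interval up to 43.4%), and the whole X chromosome had 17 peaks, with 14 of its 966 protein-coding genes carrying one (1.45%, 0.865 to 2.42%). Kdm5d lies on Y, where the list held no peak. Among autosomal chromatin genes the share was 19 of 69 (27.5%, 18.4 to 39.0%), beside 9.58% of all protein-coding genes, those on X and Y included. The share of all autosomal genes was not computed.

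With no distance limit, 34 peaks were assigned to chromatin genes, against 29 with the limit of 50 kb. The farthest upstream peak inside it was the Kdm7a peak at 37.7 kb. Beyond it, 5 further summits were nearest to a chromatin gene, and the closest of these was a peak of 38 fragments and 15.2-fold (10.9 to 20.8) at 213 kb from Tet2. Its fold was above the 14.7 of Hdac5, the highest among the peaks within the limit. The other summits, at 9.65-, 8.82-, 9.80- and 5.56-fold, were nearest to Arid1b at 216 to 368 kb. Of the 56 chromatin genes without a peak, 12 had a summit within 50 kb that was nearer to another gene. In 4 (Hdac1, Kmt5c, Kdm2a and Kmt5b) the nearest summit lay between 50 and 60 kb away and was likewise nearer to another gene, with folds of 13.7, 8.33, 6.58 and 6.07 in that order, and in 37 it was more than 100 kb away.

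Other genes of chromatin regulation, in 7 lists of genes outside these families, carried peaks at 25 of 152 (16.4%, 11.4 to 23.2%), beside 9.58% of all genes. The counts were 6 of 27 for PRC1 and Polycomb partners, led by Asxl1 at 9.61-fold, and 7 of 32 for other remodellers and SWI/SNF subunits, led by Bicral at 11.6-fold. Corepressor and NuRD genes had 5 of 24, led by Mbd2 at 8.60-fold, and acetyltransferase genes 3 of 16, led by Brpf1 at 7.99-fold. Other methyltransferase genes had 2 of 27, led by Mecom at 9.80-fold, and genes of DNA methylation and reader proteins 2 of 13, led by Brd2 at 9.61-fold. Genes for the partners of the methyltransferase complexes that PAX7 is known to recruit, among them Wdr5, Ash2l and Carm1, had 0 of 13 (Wilson 95% interval up to 22.8%).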

How the data were processed

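The deposited file is 1 list of narrow peaks, called by the authors with MACS 2.1.1.20160309 on the ChIP library against the input, at a q-value limit of 0.01, an effective genome size of 1.87e+09, a fragment length of 172 bp and local windows of 1000 and 10000 bp, per the file headers. The submitters' processing notes name GRCm38, bcl2fastq, HISAT2 and MACS2 without saying what each was used for. Tags were single-end, 50 bp, per the labels' protocols. The input, the larger library, was scaled down to the size of the ChIP library, per the file headers. Among the deposited columns, the pileup is a coverage signal in fragments and the fold is a ratio of (pileup + 1) to (local background + 1). The −log10 q-value and −log10 p-value were deposited as the caller gave them. Low pileups limit the precision, and intervals cover counting error only.

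The local background was recovered from the pileup and the fold. Genes came from RefSeq GRCm38.p6 (21900 protein-coding, 13 unplaced ones left out), and strand and promoter sequence from its promoter table, which held 60 of the 75 genes. Summits were assigned by gene span or nearest gene end within 50 kb, and a summit could be assigned to more than 1 gene. Exons were not used here, so a summit inside a gene is not placed in an exon or intron. Distances from a start are from the outermost annotated start unless a listed start is named. The assignment was tested on simulated peaks. Of the 2977 peaks, 2520 were assigned. Intervals printed after shares are Wilson 95% intervals, and no further test was run, since there is 1 library of each kind.

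The genes, families, lists and motifs were chosen with earlier results of these data known. Every gene of the families with a peak is named, with position, pileup, fold and q-value of its strongest peak where the fold reached the median of all peaks, the gene had 2 or more peaks or the summit lay within 1000 bp of its end. Values of other genes were added after they were seen. Of each further chromatin list, the gene with the highest fold is named. Other genes at these peaks are named as neighbours. The alternatives were a stricter q-value, no peaks from the top 1% by pileup, overlap in place of the summit, other distance limits, either part of the assignment rule alone, and leaving out high backgrounds or peaks at gene ends. Leaving out peaks shared with a second gene was added after seeing the data. Python 3.11.15, pandas 2.3.3, SciPy 1.17.1 and Matplotlib 3.10.9 were used.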

Additional observations from a re-analysis of the deposited data

How the results depend on the processing

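Chromatin genes carried peaks at 7 to 19 of 75 under the 10 alternatives that recount them, and their share stayed above that of all genes, at 1.79 to 3.02 times it (2.64 times as reported). No intervals were computed for these shares under the alternatives, and the lowest ratio, 1.79, was that of the stronger peaks. With the stronger peaks by −log10 q (the median and above), 7 chromatin genes and 5.20% of all genes had a peak, the median fold was 8.58, and the counts were 1 for demethylases, 0 for methyltransferases, 0 for PRC2, 1 for deacetylases and 3 for the Smarc, Arid1 and Arid2 genes. With summits inside the span only, 11 chromatin genes and 5.46% of all genes had one, with 1 demethylase, 0 methyltransferase and 1 PRC2 gene. When peaks with a gene end no farther than 1000 bp were left out, 9 chromatin genes and 5.83% of all genes were left, with 2 demethylase, 0 methyltransferase, 1 PRC2, 1 deacetylase and 3 of the Smarc, Arid1 and Arid2 genes. These alternatives use fewer peaks by construction. The share of all genes was 8.45% within 10 kb, 10.6% with no limit, 8.38% by the nearest end alone and 8.68% without peaks shared with a second gene, where 16 chromatin genes, 1 of them a methyltransferase gene, had a peak. The fold of a peak is the deposited one under every alternative, so the highest fold of a gene can move only when its peaks are left out or reassigned, and it left its Poisson interval for Tet2 (15.2-fold with no limit) and Arid1b (5.47-fold by the nearest end alone). Genes that lost every peak under an alternative, up to 12 of the 19, have no value there. The share of peaks within 1000 bp of a gene end was 37.5% with the stronger peaks by −log10 q, 56.0% by the nearest end alone and 55.2% with a window of 2500 bp, inside its interval (31.4 to 65.6%) each time. With 1 library of each kind and a median of 13 fragments per peak, differences between most of these peaks were not detectable at this depth. No paired analysis was possible because there is 1 ChIP and 1 input library.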

Other observations

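The Hdac5 promoter stretch holds the letters CTATTTTTAG, of the kind that MEF2 factors bind, at bases 231 to 240, 10 bases before the annotated start. MEF2 proteins are the known partners of class IIa deacetylases. The letters were noticed after the sequence had been read and were then searched on both strands of all windows. They were in 1 of 77 windows of chromatin genes, 1 of 570 windows of protein-coding genes with a summit (the same Hdac5 window) and 19 of all 21263 windows (0.0894%). The letters were copied from the Hdac5 window, so its match was fixed in advance. Only these exact letters were counted, so the counts do not tell how rare other letters of the MEF2 kind are. This is a match of letters and not a measured binding site.

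Arid1b was the chromatin gene with the most summits around it when the distance limit was lifted. Its 3 assigned peaks were joined by 4 upstream, at 216, 353, 367 and 368 kb from its start, with folds of 9.65, 8.82, 9.80 and 5.56. The gene at the nearest protein-coding end was Arid1b in each case.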
